A study of Mus musculus with 4 samples.

Results

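The genes described here encode the presynaptic machinery that docks, primes, fuses and recycles synaptic vesicles. The set held 43 genes, chosen by symbol from 7 roles: 4 SNAREs, 7 SNARE regulators, 8 calcium sensors, 4 genes of the Rab3 system, 8 active zone genes, 8 genes of vesicle proteins and 4 of vesicle endocytosis. All 43 were measured, among 18193 genes that the array reads under a single symbol, and each gene was taken from its probe set with the highest mean over the 4 arrays. Messenger RNA levels were read on Affymetrix MOE430 2.0 arrays from mouse prefrontal cortex. Each array held RNA pooled from 5 mice: 2 pools came from control mice, labelled LowThreat, and 2 from mice subjected to social threat repeatedly, labelled HighThreat. The sources used here do not state strain, sex, age or how threat was applied. The labels do not say whether pools came from separate cages or days, so p-values measure only the spread between these pools, each of which already averages several animals.

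At a nerve terminal, the vesicle SNARE synaptobrevin zips together with syntaxin and SNAP-25 of the plasma membrane and pulls the membranes into fusion. Synaptotagmins and Doc2 proteins sense calcium, complexins clamp and promote fusion, and Munc13, RIM, bassoon and piccolo organise the active zone where vesicles are primed. NSF and SNAP adaptors take spent SNARE complexes apart, and dynamin, amphiphysin, synaptojanin and AP180 retrieve the membrane. In prefrontal cortex these genes are mainly transcribed in neurons.

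The 4 arrays correlated with each other between 0.9942 and 0.9961 over all probe sets. All 7 measured excitatory neuron markers, all 8 GABA neuron markers and all 10 general neuron markers lay above 5.56, the median log2 value of all probe sets. So did all 7 oligodendrocyte markers and all 8 each of astrocytes, microglia and vessels. This check therefore does not single out the labelled tissue. The summed linear level of the 10 general neuron markers was 36136 to 36587 in the control pools and 36636 to 36990 in the threat pools, and 5 of the 10 lay higher in threat. Oligodendrocyte and vessel markers moved more. All 7 oligodendrocyte markers lay lower in threat, with a summed level of 19126 to 23964 in control and 10873 to 13271 in threat, and all 8 vessel markers did, with 2383 to 4552 in control and 1279 to 1753 in threat. Within the neuron classes, excitatory markers had a median of 0.01 and summed levels of 15137 to 18313 in control and 16303 to 17046 in threat, with 4 of 7 above 0. Single excitatory markers spread more widely, with Tbr1 (-0.53) and Neurod6 (-0.39) lowest and Slc17a7 (0.23) highest. GABA neuron markers had a median of -0.07 and summed levels of 11646 to 12700 against 10462 to 11615, with 5 of 8 below 0. They ran from -0.42 for Gad1 to 0.26 for Lhx6. Astrocyte markers lay at a median of -0.09 (26544 to 26559 against 22688 to 25070) and microglia markers at -0.11 (8263 to 8970 against 7276 to 8178), with 6 of 8 and 7 of 8 below 0. No marker was at 0, since RMA values do not reach it. In tissue, fewer cells of a type and less RNA per cell cannot be told apart. The 3' to 5' log2 signal ratio of Actb, a sign of RNA integrity, was 0.50 to 0.59 in control and 0.53 to 0.66 in threat.

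The release machinery differed little between threat and control. The median log2 difference (threat minus control) over the 43 genes was 0.08, with quartiles of -0.03 and 0.13, against 0.02 over all 45037 probe sets tested and 0.06 over the 11931 genes whose probe set lay above the median. The differences ran from -0.21 for Rab3a to 0.30 for Rab3b, and no gene reached 1.5-fold by the probe set used for it. With limma and Benjamini-Hochberg adjustment over all probe sets, 0% of probe sets fell under 0.05 (smallest adjusted p = 0.278), and the adjusted p of the 43 genes lay between 0.45 and 1. In all, 31 genes (72.1%) lay above 0, against 64.0% of the genes above the median, and 42 of the 43 were themselves above it. The part that the lower oligodendrocyte and vessel markers have in this small shift was not tested.

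At an unadjusted p under 0.05, 2 of the 43 genes lay higher in threat, Unc13a and Doc2b, and 0 lower. The background was 4.87% higher (2193) and 5.73% lower (2581) over all probe sets, and 6.25% and 5.27% over the genes above the median, so that 4.65% of the members higher is no more than the background. Both threat pools lay above both control pools for 17 genes (39.5%) and below both for 4 (9.30%). Over all probe sets these shares were 23.9% and 19.4%, and over the genes above the median 33.1% and 15.5%. Non-overlapping pools with a mean difference of at least 1.2-fold were found for Unc13a and Doc2b, both higher, against 6.47% of the genes above the median higher and 6.15% lower. Leaving out control pool 2 raised the count of higher genes with non-overlapping pools from 17 to 28. The count of lower genes went from 4 to 11 without control pool 1, 9 without control pool 2 and 7 without threat pool 1. Fewer pools have to be apart in these settings. The shares over all genes were not computed for them, so the higher counts say nothing particular to the set. For 26 genes the sign held without each pool in turn by rounded values, 20 above 0 and 6 below. These include the 17 and 4 genes with non-overlapping pools, whose sign could not change. No share over all genes was computed for this count.

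The intervals set limits on what these arrays could have missed. By the probe set used for each gene, the 95% interval of the log2 difference excluded a 1.5-fold change in either direction for 41 of the 43. The exceptions were Rab3b (-0.20 to 0.79) and Cplx3 (-0.65 to 0.58). Sv2c, read no higher than bacterial control probe sets, is among the 41. Other probe sets above the median reached past 1.5-fold for some of the 41, so the exclusion does not hold for every reading. On the lower side were Snap25 (-1.09 to -0.55), Sypl (-0.86 to -0.25), Syt4 (-0.85 to -0.32), Cplx1 (-0.62 to 0.19) and Rph3a (-0.59 to 0.19). On the upper side were Cplx2 (-0.20 to 1.09), Bsn (0.05 to 1.00), Vamp1 (-0.01 to 0.84), Rab3c (0.14 to 0.75) and Syn2 (-0.11 to 0.73). A 1.2-fold change in either direction was excluded for 1 gene, Syt11, by the probe set used alone. Another probe set of Syt11 lay at -0.28 (-0.52 to -0.04). Smaller differences were not resolved for the other genes. The gap between the 2 control pools had a median size of 0.12 over the 43 genes, the gap between the 2 threat pools 0.07, and the difference between threat and control 0.11. Control pool 2 lay above control pool 1 for 27 of the 43.

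**Figure D1:**
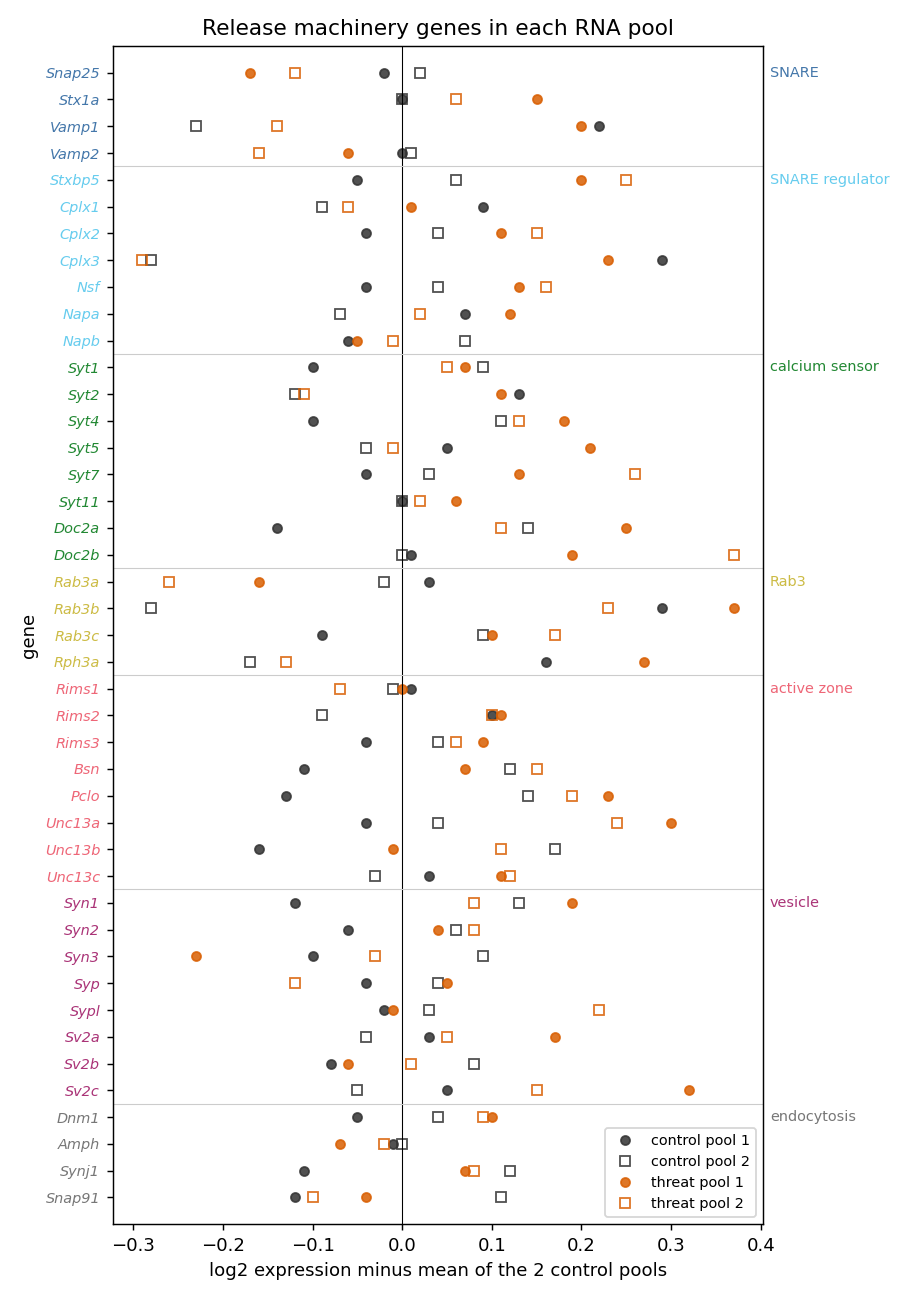
Log2 expression of each of the 43 genes in each RNA pool, minus the mean of the 2 control pools, with genes grouped by role on the vertical axis; black marks are control pools, orange marks threat pools, circles pool 1 and squares pool 2. For 17 genes both threat marks lie to the right of both control marks, for 4 to the left and for 22 they overlap; Unc13a, Doc2b and Stxbp5 have both orange marks to the right of both black marks.

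**Figure D2:**
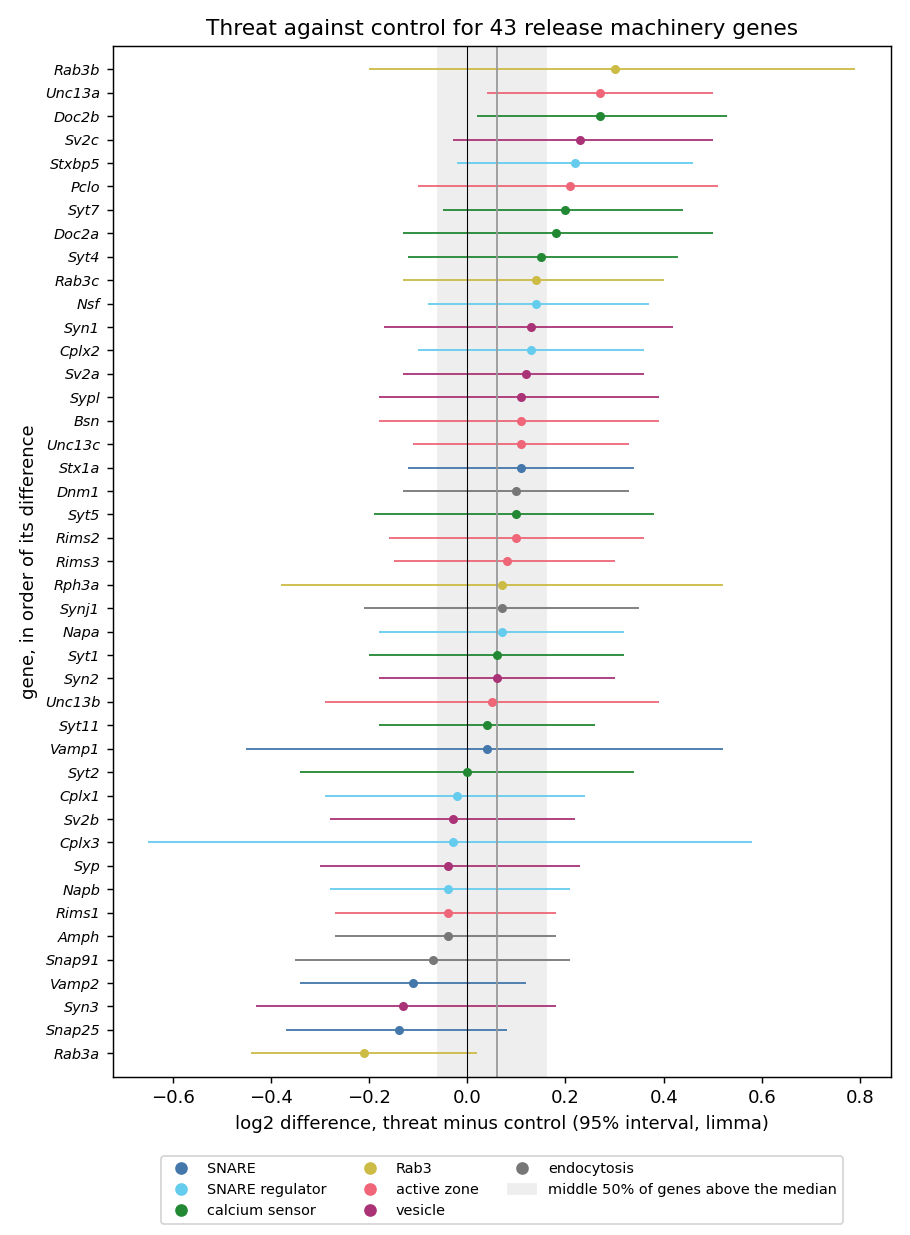
Log2 difference of each gene, threat minus control, with its 95% interval from limma (2 pools a group), in order of size and coloured by role; the grey band holds the middle 50% of the genes above the median and the grey line their median of 0.06. The intervals of Unc13a and Doc2b alone lie on 1 side of 0, before any adjustment for the number of probe sets.

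Among the SNAREs, 2 of 4 genes lay above 0 and 2 below, with a median of -0.04. Snap25, the plasma membrane SNARE that contributes a pair of helices to the fusion complex, measured 13.34 and 13.38 in control and 13.19 and 13.24 in threat. Both threat pools lay below both control pools, with a log2 difference of -0.14 ± 0.09 (SE; n = 2 pools each) and an adjusted p, from limma, of 0.57. A dimmer second probe set of Snap25 read 6.62 and 6.41 in control against 5.70 and 5.68 in threat, a difference of -0.82 ± 0.11 or 1.76-fold (unadjusted p = 0.00041 in limma's test, adjusted p = 0.34). This lower value held between -0.92 and -0.71 without each pool in turn, while that of the bright probe set stayed between -0.17 and -0.12. The 2 probe sets thus gave the same direction and sizes that differed by 0.67 on the log2 scale.

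Vamp2, the main synaptobrevin of forebrain terminals, gave opposite readings. Its brighter probe set measured 11.67 and 11.68 in control and 11.61 and 11.51 in threat, a difference of -0.11 ± 0.09. The other measured 10.14 and 10.08 in control and 10.35 and 10.44 in threat, a difference of 0.29 ± 0.09 with an unadjusted p of 0.024 and an adjusted p of 0.45 from limma. Pools did not overlap in either probe set, so no direction can be given for Vamp2. Stx1a, the syntaxin of the plasma membrane, measured 11.95 in both control pools and 12.10 and 12.01 in threat, with 0.11 and 0.16 in its 2 probe sets. Vamp1, the synaptobrevin of many fast-firing neurons, varied with the pool number in both groups, with 8.81 and 8.36 in control and 8.79 and 8.45 in threat (difference 0.04). Its pools overlapped, and the difference was -0.19 without control pool 2. A dimmer probe set of Vamp1 measured 5.84 and 5.58 in control and 6.33 and 5.92 in threat, higher by 0.42 (unadjusted p = 0.055, adjusted p = 0.48 in limma's test).

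Of the SNARE regulators, Stxbp5 had the largest difference, with like values in its 3 probe sets. It encodes tomosyn, a syntaxin-binding protein that competes with synaptobrevin and holds back priming. Its brightest probe set measured 9.36 and 9.47 in control and 9.61 and 9.66 in threat, a difference of 0.22 ± 0.09 (adjusted p = 0.48 in limma's test). The other 2 probe sets gave 0.23 and 0.24, each with both threat pools above both control pools, and the unadjusted p of the 3 lay between 0.044 and 0.062. Without each pool in turn, the 3 probe sets ran from 0.17 to 0.31. Probe sets of a gene share the same 4 arrays and are not replicates.

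Nsf, the ATPase that takes SNARE complexes apart, measured 12.58 and 12.66 in control and 12.75 and 12.78 in threat, and its 2 probe sets above the median gave 0.14 and 0.15. Both threat pools lay above both control pools in each. Its adaptors Napa and Napb lay at 0.07 and -0.04 with overlapping pools, and the 5 bright probe sets of Napb ran from -0.15 to 0.16. The complexins, which bind the assembled SNARE complex, showed no common direction. Cplx1 lay at -0.02 (11.22 to 11.63 in control and 11.11 to 11.30 in threat by its second probe set, -0.22) and Cplx2 at 0.13, with 0.04 to 0.44 over its 3 probe sets. Cplx3, a complexin best known from retinal ribbon synapses and also found in deep cortical layers, measured 7.91 and 7.34 in control and 7.85 and 7.33 in threat. Pool 1 was higher than pool 2 in each group by more than 0.5, and the groups overlapped fully.

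By the probe set used for each gene, all 8 calcium sensors had a difference of 0 or above, with a median of 0.13. Of these, 4 had non-overlapping pools and 1 was past an unadjusted p of 0.05. The 4 include Syt4 and Syt11, which other bright probe sets read lower. Among the genes above the median, 64.0% lay above 0, 33.1% had non-overlapping pools with threat higher and 6.25% were higher at that p. Doc2b, a high-affinity sensor linked to spontaneous and asynchronous release, measured 8.19 and 8.18 in control and 8.37 and 8.55 in threat. Both threat pools were higher, by 0.27 ± 0.10 or 1.21-fold (unadjusted p = 0.041, adjusted p = 0.46 in limma's test), and the value ran from 0.18 to 0.36 without each pool in turn. Its second, dimmer probe set gave 0.07 with overlapping pools. The related Doc2a measured 9.63 and 9.91 in control and 10.02 and 9.88 in threat, a difference of 0.18 with overlapping pools.

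Syt1, the sensor of fast synchronous release in forebrain neurons, measured 12.97 and 13.16 in control and 13.14 and 13.12 in threat. Its difference of 0.06 had a 95% interval of -0.20 to 0.32, and the pools overlapped. Syt7, a slower sensor of asynchronous release and facilitation, measured 11.14 and 11.21 in control and 11.31 and 11.44 in threat, a difference of 0.20 ± 0.10 (adjusted p = 0.52 in limma's test), with 0.09 and 0.12 in its 2 other bright probe sets. Syt5 lay at 0.10 and Syt2, the fast sensor of many inhibitory and hindbrain terminals, at 0.00, both with overlapping pools.

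Syt4 and Syt11, synaptotagmins that do not bind calcium in the usual way, were read in opposite directions by different probe sets. For Syt4 the brighter probe set measured 11.35 and 11.56 in control and 11.63 and 11.58 in threat (0.15 ± 0.11). The other measured 10.77 and 10.98 in control and 10.31 and 10.28 in threat, a difference of -0.58 ± 0.11 (unadjusted p = 0.0021, adjusted p = 0.41 in limma's test), between -0.68 and -0.48 without each pool in turn. Pools did not overlap in either, so the sign for Syt4 depends on the probe set. Of the 5 probe sets of Syt11, 3 lay higher and 2 lower, each with non-overlapping pools, from -0.28 to 0.14. The lowest of these ends in _x_at, a class whose probes can match other transcripts.

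In the Rab3 system, the small GTPases that tether vesicles near release sites, the set spanned its widest range. Rab3b measured 10.14 and 9.57 in control and 10.22 and 10.08 in threat. Control pool 2 stood apart, and the difference of 0.30 ± 0.20 went from 0.01 without control pool 2 to 0.58 without control pool 1. Rab3a, the most abundant brain isoform, measured 12.62 and 12.57 in control and 12.43 and 12.33 in threat by an _x_at probe set (-0.21 ± 0.09, adjusted p = 0.49 in limma's test). Its other probe set measured 12.05 and 12.02 in control and 12.21 and 12.05 in threat (0.09), so the sign again differed between probe sets. Rab3c lay at 0.14 by its brightest probe set (11.84 and 12.02 in control, 12.03 and 12.10 in threat) and at 0.18 and 0.44 by 2 others. The reading of 0.44 had both threat pools above both control pools (unadjusted p = 0.013, adjusted p = 0.43 in limma's test). Rph3a, the Rab3 effector rabphilin, measured 10.79 and 10.46 in control and 10.90 and 10.50 in threat (0.07), with overlapping pools. Its second bright probe set lay at -0.20, also with overlapping pools, so its sign differed between probe sets.

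By the probe set used for each gene, active zone genes had a median of 0.10, with 7 of 8 above 0. Of these, 5 had non-overlapping pools, and none of the 8 lay lower in that way. Other bright probe sets of Rims1 and Rims2 did. Among the genes above the median, 33.1% were higher and 15.5% lower with non-overlapping pools. Unc13a, which encodes Munc13-1, the priming factor that opens syntaxin, measured 8.82 and 8.90 in control and 9.16 and 9.10 in threat. Both threat pools lay above both control pools, by 0.27 ± 0.09 or 1.21-fold (unadjusted p = 0.028, adjusted p = 0.45 in limma's test), and the value ran from 0.23 to 0.31 without each pool in turn. A single probe set reads Unc13a here, so no second reading was at hand. Of its relatives, Unc13b lay at 0.05 with overlapping pools and Unc13c at 0.11.

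Pclo, which encodes the giant scaffold piccolo, measured 10.80 and 11.07 in control and 11.16 and 11.12 in threat, a difference of 0.21 ± 0.12. Its 3 probe sets gave 0.21, 0.19 and 0.15, each with both threat pools above both control pools, and the first fell to 0.07 without control pool 1. Bsn, the related scaffold bassoon, measured 10.84 and 11.07 in control and 11.02 and 11.10 in threat with overlap (0.11), while its dimmest probe set, with a mean of 5.60 close to the median of all probe sets, gave 0.52 (unadjusted p = 0.035, adjusted p = 0.45 in limma's test). The RIM genes, scaffolds that join Rab3, Munc13 and calcium channels, lay at -0.04 for Rims1, 0.10 for Rims2 and 0.08 for Rims3. The 3 bright probe sets of Rims2 had non-overlapping pools in both directions, from -0.07 to 0.11. The second probe set of Rims1 measured 9.86 and 9.72 in control and 9.68 and 9.55 in threat. Its difference was -0.18, with both threat pools below both control pools.

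Genes of vesicle proteins had a median of 0.08, with 5 of 8 above 0 and 6 with overlapping pools. The synapsins, which cluster the reserve pool of vesicles, lay at 0.13 for Syn1 (12.02 and 12.27 in control, 12.33 and 12.22 in threat), 0.06 for Syn2 and -0.13 for Syn3. All had overlapping pools. All 5 bright probe sets of Syn2 lay above 0, from 0.03 to 0.31, and all 3 of Syn3 below 0, from -0.13 to -0.02. Syp, the vesicle marker synaptophysin, measured 12.13 and 12.21 in control and 12.22 and 12.05 in threat, a difference of -0.04 with a 95% interval of -0.30 to 0.23.

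The SV2 glycoproteins, which support the readiness of vesicles to fuse, lay at 0.12 for Sv2a (10.74 and 10.67 in control, 10.88 and 10.76 in threat) and -0.03 for Sv2b. Sv2c read 3.90 and 3.80 in control and 4.17 and 4.00 in threat. All 4 values were at or below 4.25, the highest value of the bacterial control probe sets, so its difference of 0.23 has no interpretable size. Sypl, a broadly expressed relative of synaptophysin, measured 9.37 and 9.42 in control and 9.38 and 9.61 in threat. Its 6 bright probe sets ran from -0.56 to 0.27, the widest spread of any gene in the set. The lowest was an _s_at probe set with 8.10 and 8.12 in control and 7.41 and 7.70 in threat (unadjusted p = 0.0050, adjusted p = 0.42 in limma's test), and 1 other had both threat pools higher.

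Of the 7 roles, the endocytic genes had the median closest to 0, at 0.01, with 2 genes above 0 and 2 below. Dnm1, the neuronal dynamin that pinches off vesicles, measured 12.72 and 12.81 in control and 12.87 and 12.86 in threat (0.10 ± 0.09). Its second probe set measured 10.72 and 10.77 in control and 11.02 and 11.06 in threat, a difference of 0.29 ± 0.09 (unadjusted p = 0.019, adjusted p = 0.44 in limma's test). Both probe sets had non-overlapping pools with threat higher. Synj1, the phosphatase that helps shed the clathrin coat, lay at 0.07, Snap91, the clathrin adaptor AP180, at -0.07 and Amph, amphiphysin, at -0.04, the first 2 with overlapping pools. The 3 bright probe sets of Synj1 ran from 0.02 to 0.23, the highest with both threat pools above both control pools.

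Probe sets of a gene did not always give the same direction. Of the 43 genes, 29 had at least 2 probe sets above the median. All probe sets were above 0 for 16 of the 29, all below for 3 and of both signs for 10. Non-overlapping pools in both directions were found for 6 of the 29: Vamp2, Syt4, Syt11, Rab3a, Rims2 and Sypl. Every probe set had both threat pools higher for 5 (Stx1a, Stxbp5, Nsf, Pclo and Dnm1) and both lower for 1 (Snap25). These counts by gene were not made over all genes, so no background stands beside them. Over the 95 bright probe sets of the members, 68 lay above 0 (71.6%) and 27 below, against 63.3% above 0 among all 22518 probe sets above the median. Pools did not overlap for 36 of the 95 higher (37.9%) and 11 lower (11.6%), against 32.3% and 16.8% of those 22518. At an unadjusted p under 0.05, 7 were higher (7.37%) and 4 lower (4.21%), against 6.99% and 6.31% of those 22518, and none passed the adjusted threshold.

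**Figure D3:**
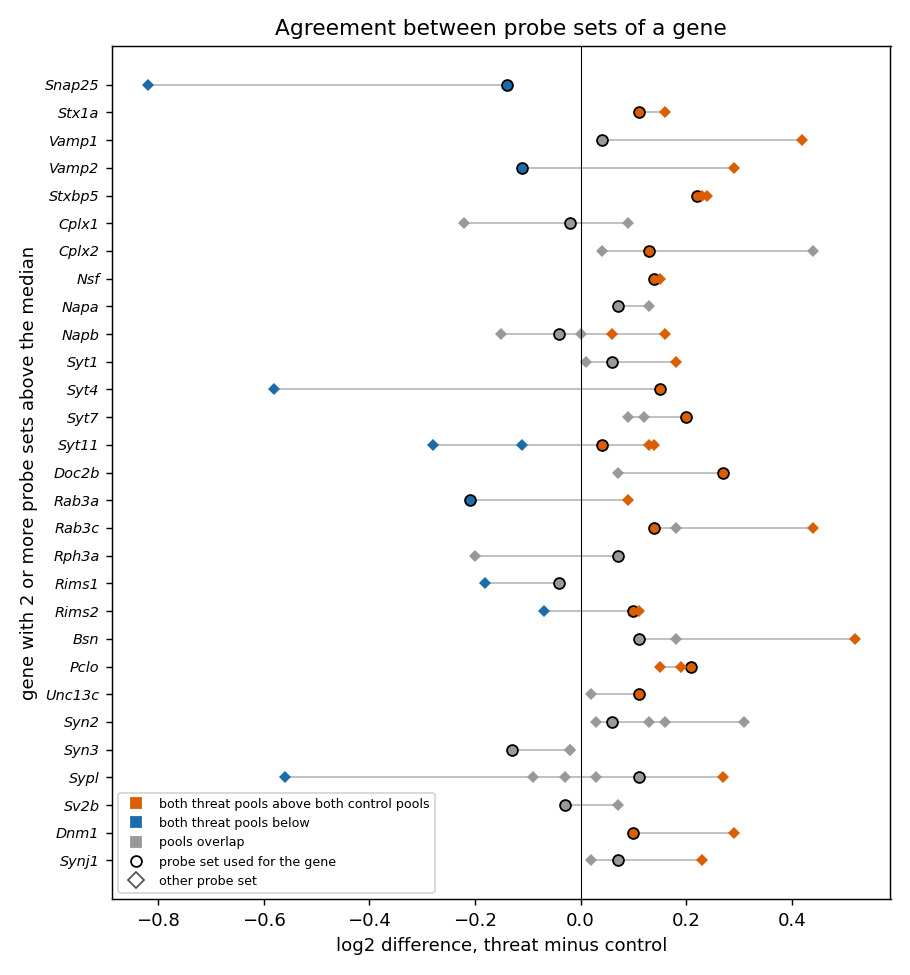
Log2 difference, threat minus control, of every probe set above the median for the 29 genes with at least 2 of them; circles mark the probe set used for the gene, diamonds the others, and the colour says whether the pools were apart. Stxbp5, Nsf and Pclo have their marks close together to the right of 0, Snap25 has both to the left, and Syt4, Sypl and Vamp2 have marks on both sides.

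Promoter sequence was at hand for 34 of the 43 genes, from RefSeq (GRCm38.p6), as windows from 250 bases before to 50 after a transcription start. The GC box GGGCGG, to which Sp1-type factors bind, was found in a window of 27 of the 34 genes and in 38.2% of all 27025 genes with a window (35.7% of windows). The cyclic AMP response element TGACGTCA occurred in 2 of the 34, Napa and Syn1, and in 2.03% of all genes (1.79% of windows). CAGCACC, the left arm of the RE1 element through which the repressor REST silences neuronal genes in other cells, occurred in 5 of the 34 (Napa, Rph3a, Unc13a, Syn1 and Sv2c) and in 8.14% of all genes (7.14% of windows). Each motif was searched on both strands. A GC box and CAGCACC can overlap, since both hold paired C or G bases. A match is a description of the letters only.

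The 250 bases before the start are shown for Stxbp5 (chr10:9901041-9901290, minus strand), Unc13a (chr8:71671758-71672007, minus strand) and Syn1 (chrX:20920919-20921168, minus strand). Stxbp5 had like differences in 3 probe sets. Unc13a had the lowest unadjusted p of the 43 genes by the probe set used for each, and other probe sets of some genes had lower ones. The window of Syn1 holds 2 of the motifs. Capitals mark GC boxes, the cyclic AMP response element and CAGCACC, on either strand.
Stxbp5: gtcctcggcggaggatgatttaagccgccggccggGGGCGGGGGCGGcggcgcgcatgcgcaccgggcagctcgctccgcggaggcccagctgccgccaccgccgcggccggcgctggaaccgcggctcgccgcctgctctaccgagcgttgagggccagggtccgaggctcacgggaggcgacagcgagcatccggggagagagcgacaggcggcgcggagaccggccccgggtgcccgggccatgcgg
Unc13a: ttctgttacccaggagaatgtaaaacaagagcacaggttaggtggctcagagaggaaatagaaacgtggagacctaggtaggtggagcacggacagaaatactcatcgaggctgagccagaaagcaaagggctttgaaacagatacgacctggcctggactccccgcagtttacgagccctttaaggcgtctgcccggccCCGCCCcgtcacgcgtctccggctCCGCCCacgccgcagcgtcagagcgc
Syn1: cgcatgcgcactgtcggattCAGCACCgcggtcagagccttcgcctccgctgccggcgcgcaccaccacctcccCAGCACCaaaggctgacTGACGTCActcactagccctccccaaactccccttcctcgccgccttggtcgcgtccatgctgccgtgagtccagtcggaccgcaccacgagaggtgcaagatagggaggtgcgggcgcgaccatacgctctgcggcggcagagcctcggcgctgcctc
The stretches of Stxbp5 and Unc13a hold 2 GC boxes each, those of Stxbp5 side by side, and that of Syn1 holds 1 cyclic AMP response element and 2 copies of CAGCACC. The CAGCACC counted for Unc13a is not within the stretch shown, which leaves out the bases after the start. Syn1 was not alone in holding more than 1 motif, since Napa, Rph3a, Unc13a and Sv2c did as well.

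Presynaptic genes outside the set were listed by the same roles. Of 72 listed, 68 were measured, with a median of 0.07 and 47 above 0. At an unadjusted p under 0.05, 3 lay higher (4.41%) and 1 lower (1.47%), against 6.25% and 5.27% of the genes above the median, and none passed the adjusted threshold in limma's test. Pools did not overlap for 28 higher (41.2%) and 8 lower (11.8%), against 33.1% and 15.5%. By the probe set used for each gene, the largest difference was that of Syt9, another fast calcium sensor, which measured 7.32 and 7.40 in control and 7.95 and 7.96 in threat. It was 0.60 ± 0.09 higher or 1.51-fold (unadjusted p = 0.00087, adjusted p = 0.40), and 0.55 to 0.64 without each pool in turn. The largest negative difference on that basis was that of Synpr, the vesicle protein synaptoporin, with 11.13 and 11.48 in control and 10.91 and 10.70 in threat (-0.50, unadjusted p = 0.018, adjusted p = 0.44). Syt9 and Synpr were each read by a single probe set, and that of Synpr went from -0.68 to -0.33 without each pool in turn. Snap29, a broadly expressed relative of Snap25, had a dimmer probe set with 5.74 and 5.59 in control and 6.27 and 6.35 in threat, higher by 0.65 (unadjusted p = 0.00097, adjusted p = 0.40 in limma's test) and by 0.57 to 0.73 without each pool in turn. Its 2 brighter probe sets gave -0.13 and 0.13, and it is named here after its values were seen.

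Of the other endocytic genes, Dnm3, a dynamin of neurons and other tissues, lay at 0.31 (10.92 and 10.77 in control, 11.18 and 11.13 in threat), and its 5 bright probe sets all lay above 0, from 0.23 to 0.46. Ap2b1 and Ap2a2, subunits of the clathrin adaptor AP-2, lay at 0.26 and 0.23, Synj2 at 0.21 and Dnm2 at -0.21. Among the other active zone genes, Rab3gap2 lay at 0.31, with 0.02 in its second probe set, Erc1 at 0.26, and Rimbp2 and Apba2 at 0.22. Of the transporters that load vesicles with glutamate, Slc17a7 lay at 0.23 and Slc17a6 at 0.29, the latter with 8.94 and 7.73 in the control pools. Svop was at 0.20. Syt17 lay at 0.25, Syt10, whose probe set was below the median, at 0.20 and Syt3 and Syt13 at 0.16, and of the other SNARE genes Vamp3 lay at -0.20, Snap23 at -0.15 and Stxbp6 and Napg at 0.18. By the probe set used for each gene, Syt9, Synpr, Dnm3 and Rab3gap2 had an unadjusted p under 0.05 and the other genes named here did not. Among the further bright probe sets of those other genes, Dnm2 had 2 under 0.05 (-0.38 and -0.28), Vamp3 had 1 (-0.25) and Ap2a2 had 1 (0.27), each with the same sign as the probe set used. Listed genes not named above also had such probe sets: Cask (0.23 and 0.28), Lin7a (0.39), Rab27b (0.27) and Vamp7 (-0.33). For Cask the sign was opposite to that of the probe set used (-0.14).

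**Figure D4:**
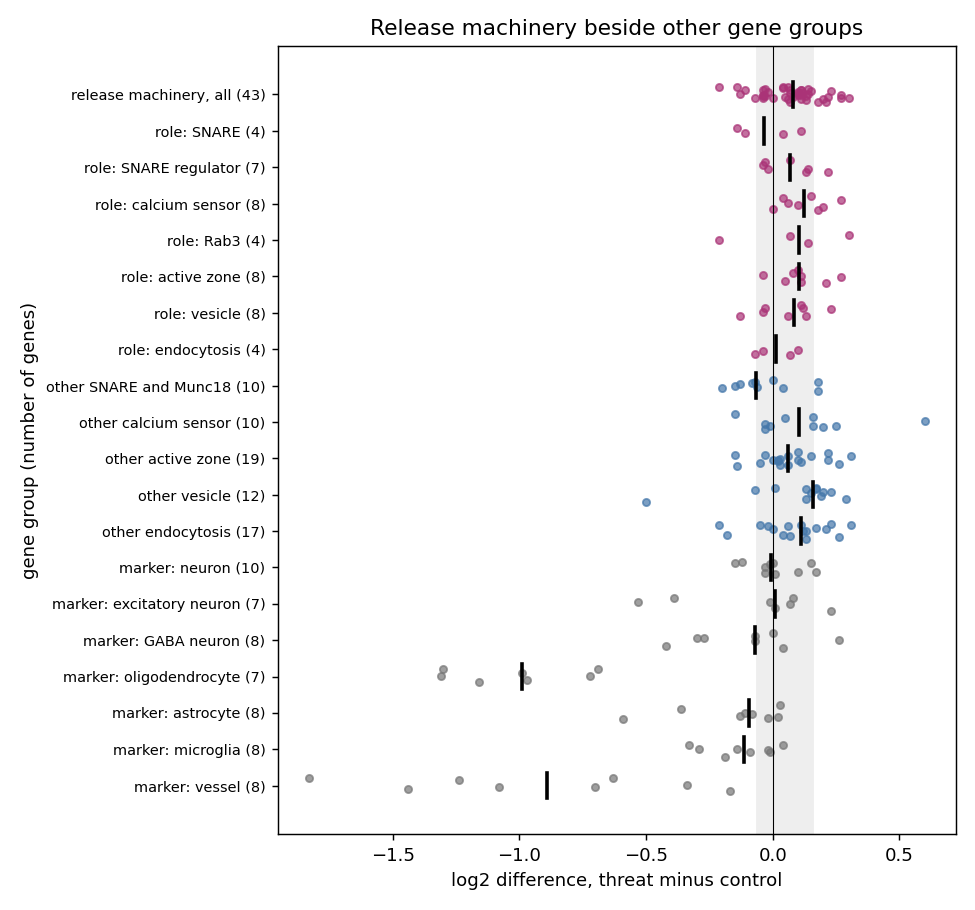
Log2 difference, threat minus control, of each gene (points) and the median (bar) for the release machinery and its roles, the other presynaptic genes and the cell type markers; the grey band holds the middle 50% of the genes above the median. The release machinery sits around 0.08, the general neuron markers around 0, and the oligodendrocyte and vessel markers around -0.99 and -0.89.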

How the data were processed

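The authors deposited a log2 value for each probe set on each of 4 arrays. RMA is named in the submitters' processing notes, and the sources used here do not give its version, settings or chip definition. The 4 columns held 45101 probe sets. The 64 control probe sets were left out, and 27 bacterial ones served as a guide to background (highest value 4.25). Symbols came from the platform annotation, and probe sets with several symbols or none were not named.

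Threat was compared with control with limma 3.58.1 in R 4.3.3 (lmFit, eBayes without trend, 2-sided, Benjamini-Hochberg over all 45037 probe sets), tested on simulated data. An exact permutation test of 2 against 2 pools cannot go below p = 0.333, so none was run. A gene lay "above the median" or "bright" where its probe set's mean exceeded 5.56. Summed marker levels add 2 to the power of each log2 value. The number of arrays limits the precision. Genes given with values in every pool were those with non-overlapping pools and at least 1.2-fold, the largest of each role, and others whose probe sets or pools were compared, added after their values were seen; of the other presynaptic genes, the 4 largest per list (5 where values tied). Members and lists were chosen with earlier results of these data known. Alternatives were median centring, cyclic loess, averaging over all probe sets that share a symbol, no _x_at or _s_at probe sets, bright probe sets alone, an intensity trend, the pool number as a block, and each pool left out in turn.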

Additional observations from a re-analysis of the deposited data

How the results depend on the processing

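No probe set passed the adjusted threshold under any of the 11 alternatives run. The median over the 43 genes, 0.08, was 0.11 after median centring, 0.05 after cyclic loess, and 0.05 to 0.10 without each pool in turn. The count of genes with an unadjusted p under 0.05 and higher in threat, 2, was 1 after cyclic loess, 5 with an intensity trend and 0 to 1 without a pool, and the count of lower genes, 0, was 1 averaged over all probe sets of a symbol and 2 with an intensity trend. Non-overlapping pools were counted for 20 to 28 higher and 5 to 11 lower genes without a pool, against 17 and 4 with all pools. The shares over all genes without a pool were not computed. The median of the other presynaptic genes, 0.07, was 0.10 after median centring, 0.10 without _x_at and _s_at probe sets and 0.04 to 0.11 without a pool. With the pool number as a replicate block the median stayed 0.08 and no probe set was called. Deviations of same-numbered pools correlated at 0.33 over probe sets. No background was computed for this value, so it does not settle whether pools were paired.

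Some genes changed sign, and the cause was not tested. Averaged over all probe sets of a symbol, Vamp2 was 0.09, Napb 0.04, Syt4 -0.22, Syt11 -0.02, Rph3a -0.07, Unc13c -0.01, Sypl -0.06 and Sv2b 0.02. Rab3a was 0.09 without _x_at and _s_at probe sets, Cplx1 and Sv2b 0.01 after median centring, Vamp1 -0.04 and Unc13b -0.02 after cyclic loess. Without a pool, the range was -0.19 to 0.26 for Vamp1, -0.11 to 0.07 for Cplx1, -0.32 to 0.25 for Cplx3, -0.10 to 0.03 for Napb, -0.04 to 0.15 for Syt1, -0.01 to 0.21 for Syt5, -0.13 to 0.27 for Rph3a, -0.01 to 0.22 for Bsn, -0.11 to 0.21 for Unc13b, -0.12 to 0.05 for Syp, -0.01 to 0.22 for Sypl, -0.11 to 0.05 for Sv2b, -0.04 to 0.19 for Synj1 and -0.18 to 0.04 for Snap91.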
